A study of Nannochloropsis oceanica with 36 samples.

Results

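A set of 41 abundant transcripts of Nannochloropsis oceanica IMET1, a unicellular marine alga that stores oil, differed little between sampling times and between nitrogen-replete (N-replete) and nitrogen-deprived (N-deprived) medium. They were taken from 9756 gene models by 3 limits set on the measured values. A member had a mean of at least 50 FPKM over the 36 libraries, where FPKM is the number of sequenced fragments divided by transcript length and by the library's total of mapped fragments. Its highest and lowest group means of log2(FPKM + 1) lay less than 0.7 apart, which is 1.62-fold, and its means in the 2 media lay less than 0.35 apart at every time. The first limit left 2607 gene models, of which the members were 1.57%. Because the medium and time contrasts chose the members, the small size of these differences is a description of the choice and not a finding, and it was given no test.

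Washed cells from growing cultures of strain IMET1 were put into N-replete medium (a modified f/2 seawater medium with nitrate) or into N-deprived medium, and both were kept under continuous light with air enriched in CO2. Samples were taken at 3, 4, 6, 12, 24 and 48 h with 3 biological replicates each, which made 12 groups of 3 libraries of poly(A) RNA; per the protocol it was selected from the total RNA of the cells, while the molecule field of the labels says nuclear RNA. Each medium serves as the other's reference at the same time, and no group was sampled before the transfer. Below, log2 values are on the log2(FPKM + 1) scale, and a difference between media is N-deprived minus N-replete, with its standard error from the limma model of all groups.

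When nitrogen runs out, algae of this genus slow their division, lose chlorophyll and accumulate triacylglycerol, and a large part of the transcriptome changes in level. Transcripts that stay level through such a change are the usual candidates for reference genes in RT-qPCR, where the amount of a target is read against a transcript taken to be constant. FPKM is relative to the mapped fragments of a library, so a transcript steady in FPKM can still differ in copies per cell, and in these bulk samples a change in the RNA content of cells cannot be told apart from one in a transcript. The identifiers of the members carry no gene symbol, and the files do not pair them with names or functions. The members are therefore described by identifier, level and position, with no role assigned.

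The libraries behind these values had summed FPKM between 475304 and 629498. The number of fragments per library was not given. A relative depth, fitted so that the low values of 82 weakly expressed genes became whole fragments, ran from 0.704 to 2.63, and 98.6% of 1881 such values came out within 0.1 of a whole number. At 12 h the libraries of both media stood apart: their 10 most abundant genes took 13.4 to 14.8% of the summed FPKM, against 4.20 to 7.01% at the other times. The median gene at 12 h had 17.6 to 20.7 FPKM, against 24.3 to 30.9 FPKM elsewhere. The number of members and the median distance between their highest and lowest group means are given with and without 12 h, as are the distances of a few members. Other such distances include 12 h.

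The members did not reach the top of the abundant range. Their mean FPKM ran from 51.2 to 503, with a median of 87.9. Between 50 and 100 FPKM 21 of 1549 gene models were members, between 100 and 200 FPKM 11 of 636, between 200 and 500 FPKM 8 of 314, and at 500 FPKM or more 1 of 108. Among the 500 most abundant gene models 11 were members, and among the 100 most abundant 0 were. No member was listed at 0 in any library.

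**Figure D1:**
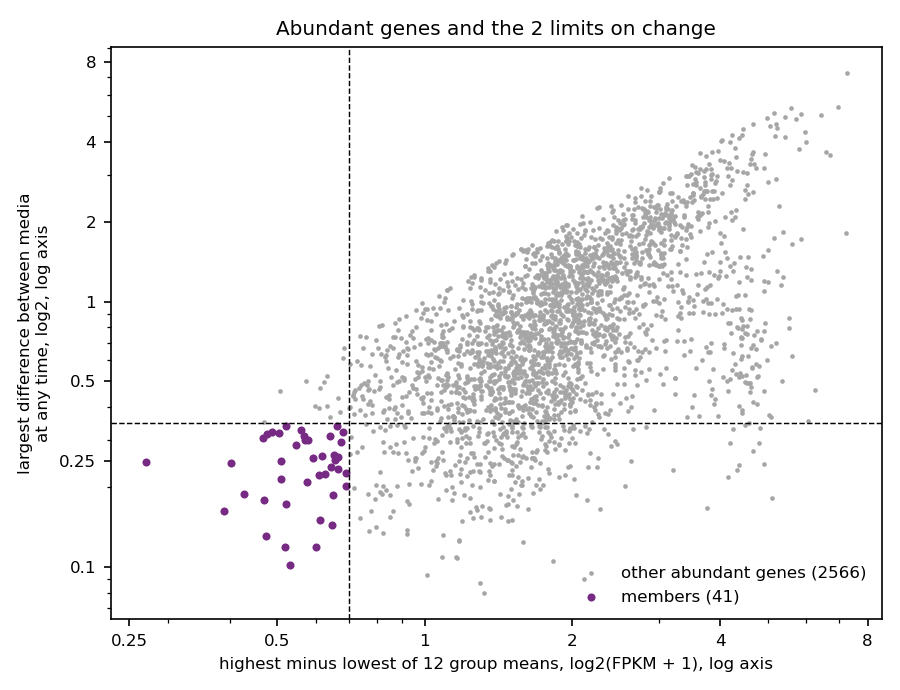
Each point is a gene model with a mean of at least 50 FPKM, by the distance between its highest and lowest group mean (horizontal) and its largest difference between media at any time (vertical), both in log2(FPKM + 1) units on log axes, with the limits of 0.7 and 0.35 as dashed lines. The 41 members fill the lower left corner, and the other 2566 have medians of 1.85 and 0.76.

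The distance between a member's highest and lowest group mean was 0.27 to 0.69, with a median of 0.58, which is 1.49-fold. The other 2566 abundant gene models had a median of 1.85, which is 3.59-fold. Read library by library, without averaging replicates, the highest of the 36 values of a member was 1.35 to 1.95 times its lowest, with a median of 1.70. All 41 members therefore stayed within 2-fold over every library of the study. So did 69 of the 2566 other abundant gene models, whose median was 4.24-fold.

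Of the limits on change, that on the distance between groups was met by fewer gene models. It was met by 55 of the 2607 abundant gene models (2.11%), while the limit on the media was met by 365. There were 14 that passed the first and not the second, and 324 that passed the second and not the first.

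The member with the smallest distance between group means in FPKM was scaffold00354.g10009, at positions 98356 to 99371 of scaffold00354, with a mean of 461 FPKM. In N-replete medium its 3 libraries held 431, 444 and 455 FPKM at 3 h, 437, 406 and 432 at 4 h, 443, 429.9 and 420.4 at 6 h, 427, 411 and 483 at 12 h, 486, 483 and 549 at 24 h, and 416, 419 and 441 at 48 h. In N-deprived medium they held 514, 502 and 456 FPKM at 3 h, 455, 452 and 436 at 4 h, 478, 487 and 449.8 at 6 h, 454, 426 and 409 at 12 h, 517, 517 and 503 at 24 h, and 526, 513 and 478 at 48 h. Every library thus lay between 405.6 and 549 FPKM. The media did not overlap at 3, 6 and 48 h, with the N-deprived libraries higher, and overlapped at 4, 12 and 24 h. Its highest and lowest group means, N-deprived 24 h and N-replete 4 h, were 0.27 apart. The largest difference between media, at 48 h, was 0.25 with a standard error of 0.065. Its place rests on the FPKM scale: it failed the limits after centring and after quantile normalization, where its mean difference between media over the 6 times was 0.51 against 0.10 in FPKM. Its place as the smallest also rests on 12 h. Without those libraries its distance stayed at 0.27, while those of scaffold00182.g5451, scaffold00009.g700 and scaffold00104.g3904 were 0.13, 0.21 and 0.24.

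The most abundant member, scaffold00271.g7940 (scaffold00271, 108276 to 112506), had a mean of 503 FPKM and rank 106 by mean FPKM in the series. Its libraries ran from 395 to 687 FPKM with a median of 490.03. In N-replete medium its mean was 453 ± 18.6 FPKM at 3 h (SD, n = 3, as for all group means here), 509 ± 27.3 at 4 h, 520.1 ± 24.9 at 6 h, 423 ± 28.4 at 12 h, 592 ± 61.8 at 24 h and 466 ± 11.01 at 48 h. In N-deprived medium the means were 477 ± 22.8 FPKM at 3 h, 525 ± 15.3 at 4 h, 538 ± 5.33 at 6 h, 439 ± 18.9 at 12 h, 643 ± 66.7 at 24 h and 449.7 ± 6.85 at 48 h. In FPKM both media had the same shape, with the lowest mean at 12 h and the highest at 24 h, and no difference between media exceeded 0.12. After quantile normalization its mean difference was 0.46, with N-deprived medium higher at 6 of 6 times, and it failed the limits.

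**Figure D2:**
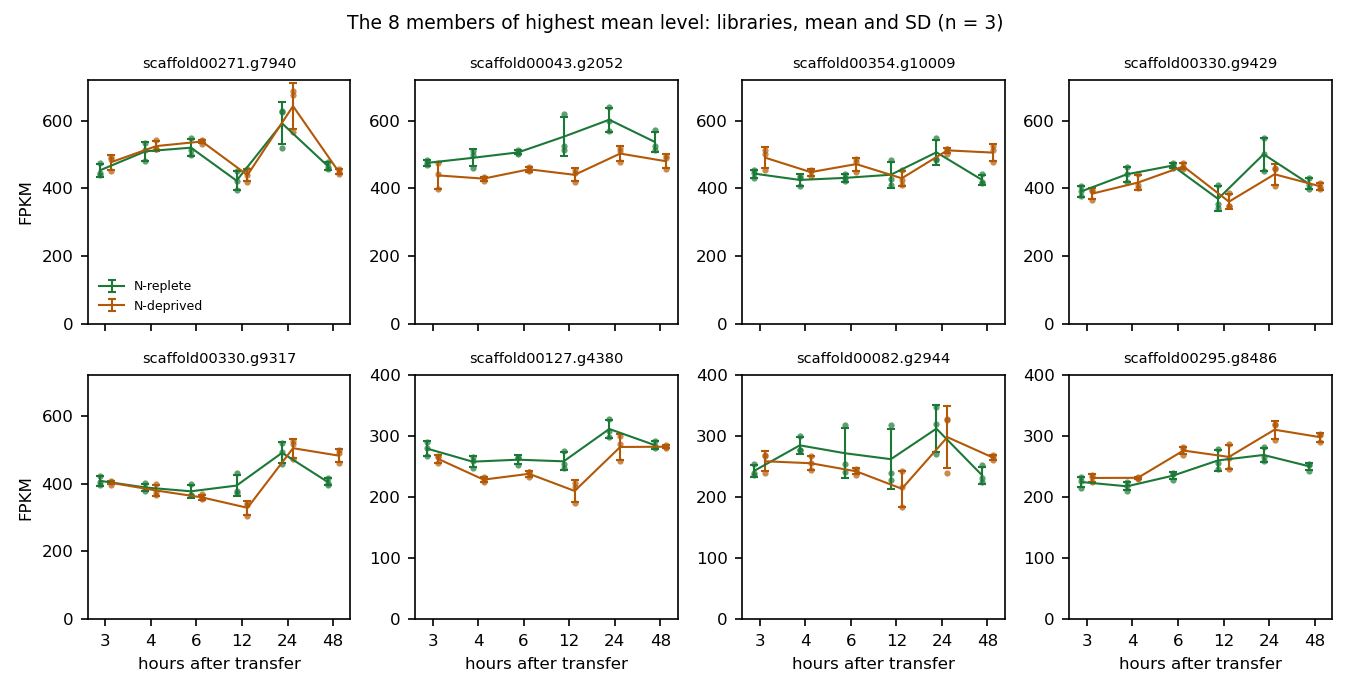
FPKM against hours after transfer (evenly spaced times) for the 8 members of highest mean level; points are the 36 libraries, lines join the means of 3 replicates in each medium, bars are SD, and the vertical axes start at 0 with a shorter scale for the last 3 members. The N-replete and N-deprived points lie close together in every panel, and scaffold00354.g10009 has the flattest pair of lines, with means between 425 and 512 FPKM.

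The next most abundant members differed in which medium lay higher in FPKM, though after quantile normalization N-deprived medium was the higher at 6 of 6 times in scaffold00043.g2052, scaffold00330.g9429 and scaffold00330.g9317, with mean differences of 0.20, 0.30 and 0.36. The member scaffold00043.g2052 (scaffold00043, 1462428 to 1463810), with a mean of 492 FPKM, had its lower mean under deprivation at each of the 6 times in FPKM and after centring. Its means were 475 ± 8.64 FPKM in replete and 438 ± 38.8 in deprived medium at 3 h, and 553 ± 57.8 and 439.9 ± 19.4 at 12 h. This 12 h difference of -0.32 was its largest, with a standard error of 0.069. The media did not overlap at 5 of the 6 times.

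For scaffold00330.g9429 (scaffold00330, 764992 to 766286), at a mean of 421 FPKM, the media overlapped at every time. Its means at 6 h were 467 ± 7.74 FPKM in replete and 465 ± 8.91 in deprived medium, and at 48 h 413 ± 16.1 and 406 ± 9.62. The largest separation was at 24 h, with 501 ± 48.8 against 442 ± 31.2 FPKM, a difference of -0.18 with a standard error of 0.072. After quantile normalization the sign was reversed, as given above, and the limits were not met.

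On the same scaffold, scaffold00330.g9317 (457590 to 459349), with a mean of 410.2 FPKM, changed its order between times. At 12 h the mean was 394 ± 31.8 FPKM in replete and 329 ± 20.8 in deprived medium, and at 48 h it was 405 ± 10.2 and 483 ± 20.1. The differences were -0.26 and 0.25, each with a standard error of 0.063, and the libraries of the media did not overlap at either time in FPKM.

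The remaining members of the 8 most abundant had means between 256 and 263 FPKM. The libraries of scaffold00127.g4380 (scaffold00127, 620721 to 623015) ran from 189.95 to 329 FPKM, and its N-deprived means were the lower ones at all 6 times, with the largest gap of -0.30 at 12 h, though after quantile normalization they were the higher ones at 4 of 6. Those of scaffold00082.g2944 (scaffold00082, 310595 to 311533) ran from 183 to 347 FPKM, and its replicates scattered more than those of most members, for example 262 ± 49.1 FPKM in N-replete medium at 12 h; its mean difference between media was -0.07 in FPKM and 0.16 after quantile normalization. Those of scaffold00295.g8486 (scaffold00295, 463476 to 465280) ran from 211 to 320 FPKM, and its N-deprived means were the higher ones at all 6 times (4 of 6 after centring), with 298 ± 7.26 against 251 ± 6.13 FPKM at 48 h.

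Of the 4 members with the smallest distances between group means, those other than scaffold00354.g10009 had lower levels. This is no pattern of level over the set. A distance under 0.5 was found in 9 members, and these included scaffold00330.g9429 with 0.47 and scaffold00043.g2052 with 0.49, both among the most abundant. The member scaffold00104.g3904 (scaffold00104, 381543 to 383430; mean 145 FPKM) had a distance of 0.39, between 161 ± 5.54 FPKM in N-deprived medium at 3 h and 123 ± 8.86 in the same medium at 12 h. For scaffold00007.g277 (scaffold00007, 749338 to 750343; mean 86.1 FPKM) it was 0.40, between 96.2 ± 2.77 FPKM in N-replete medium at 48 h and 72.7 ± 7.25 in N-deprived medium at 12 h. For scaffold00145.g5003 (scaffold00145, 466830 to 470761; mean 51.3 FPKM) it was 0.43, between 58.8 ± 3.51 FPKM in N-deprived medium at 6 h and 43.4 ± 2.18 in N-replete medium at 24 h. In scaffold00104.g3904 and scaffold00007.g277 the lowest group was thus N-deprived medium at 12 h, while scaffold00145.g5003 was lowest at 24 h. Without the 12 h libraries the distances of scaffold00104.g3904 and scaffold00007.g277 were 0.24 and 0.28.

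The limits cut through a continuous range of values. Just inside the limit on level was scaffold00188.g5998 with a mean of 51.2 FPKM, and the nearest gene model that failed this limit alone was scaffold00009.g814 with 46.9 FPKM. Just inside the limit on the distance between groups was scaffold00082.g3039 with 0.69, and just outside it scaffold00330.g9383 with 0.70. Just inside the limit on the media was scaffold00330.g9448 with 0.34, and just outside it scaffold00247.g6886 with 0.35. Across the limits on change, these gaps were smaller than the standard error of a difference between media in the members named, 0.075 for scaffold00082.g3039 and 0.067 for scaffold00330.g9448. How many gene models met the limits also depended on the scale and the libraries: 130 did after centring on the median gene (14 of them members), 66 after quantile normalization (28), 294 without the 12 h libraries (41) and 23 without replicate 3 (22).

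Over time, most members lay below their own mean at 12 h in FPKM, 33 of 41 in each medium, and 8 lay above it. The depth is bounded by the limit of 0.7 that chose the members, so it is a description. Relative to each gene's own mean, the median member lay at -0.11 at 12 h in replete and -0.22 in deprived medium, while the medians of the other abundant gene models were -0.54 and -0.64. The lowest of the 12 groups was at 12 h for 22 of the 41 members, 15 of them under deprivation and 7 in replete cultures, and the highest was at 12 h for 0. Among the other abundant gene models 63.4% were lowest and 12.6% highest at 12 h. The median of all gene models in a library moved at 12 h by -0.64 to -0.45, so relative to the median gene the members were high rather than low at that time. After a centring of libraries on the median gene (the median log2 ratio to the average library was set to 0), all 41 members lay above their own mean at 12 h in both media, by 0.10 to 0.76 in replete and 0.035 to 0.71 in deprived medium. On that scale 40 of the 41 had their highest group at 12 h, 25 exceeded the limit of 0.7 between groups and 11 that of 0.35 between media. The direction at 12 h therefore depends on whether steadiness is read in FPKM or against the median gene. The larger share of a few abundant genes at 12 h moves with this result, and its part in it was not tested.

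**Figure D3:**
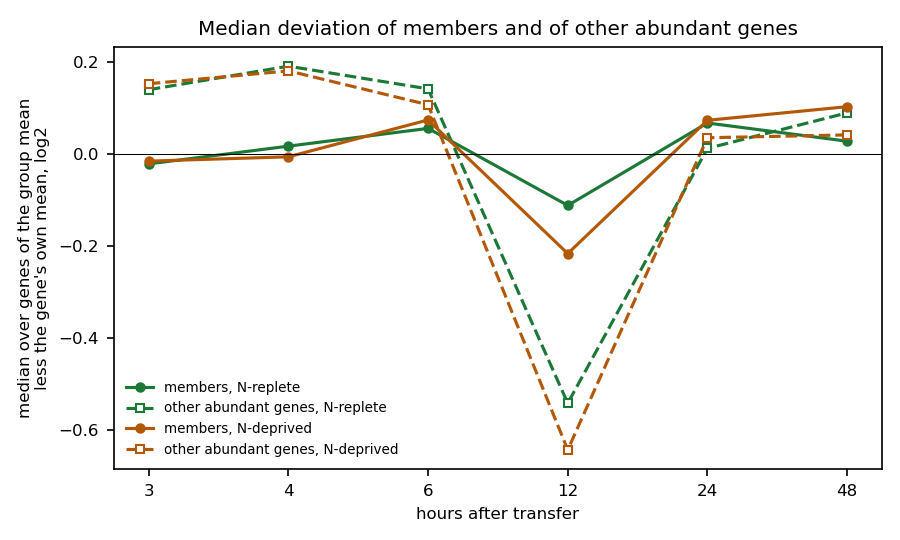
Median over gene models of the group mean less the gene's own mean, in log2(FPKM + 1), by hours after transfer; solid lines are the 41 members, dashed lines the other 2566 abundant gene models, and colours the media. At 12 h the member medians are -0.11 (N-replete) and -0.22 (N-deprived) and the medians of the others -0.54 and -0.64; after centring on the median gene the members lie above, not below, their mean at 12 h.

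In FPKM, steps between consecutive times were downwards to 12 h and upwards after it in most members. After centring on the median gene 40 of the 41 had their highest group at 12 h, so this direction depends on the scale. The steps below are in FPKM. From 6 to 12 h the median member moved by -0.23 in N-replete medium, with 31 of 41 downwards and 10 upwards, and by -0.24 in N-deprived medium, with 35 downwards and 6 upwards. From 12 to 24 h it moved by 0.25 in each medium, with 32 and 35 members upwards. The median size of the step from 6 to 12 h was 0.25 and 0.28, against 0.85 and 0.91 among the other abundant gene models. From 3 to 4 h, the shortest interval, it was 0.098 and 0.095, against 0.19 and 0.20. With the 12 h libraries set aside, the distance between the highest and lowest group mean of the members had a median of 0.48, against 1.34 for the others.

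Away from 12 h the members did not share a course. The group with the highest mean was N-deprived medium at 6, 24 or 48 h for 8 members each, N-replete medium at 24 h for 7, N-deprived medium at 3 h and N-replete medium at 48 h for 4 each, and 2 other groups for 1 member each. The member scaffold00145.g4875 (scaffold00145, 41959 to 48351; mean 127 FPKM) was lowest at 24 h in both media, with 97.2 ± 2.26 FPKM in replete and 102 ± 5.48 in deprived medium, and in N-deprived medium reached 156 ± 7.21 FPKM at 6 h. The distance between group means within a medium was larger in N-deprived than in N-replete medium for 25 members and smaller for 16, with medians of 0.50 and 0.43. The medians of the other abundant gene models, 1.48 and 1.32, had the same order, so it is not particular to the members.

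**Figure D4:**
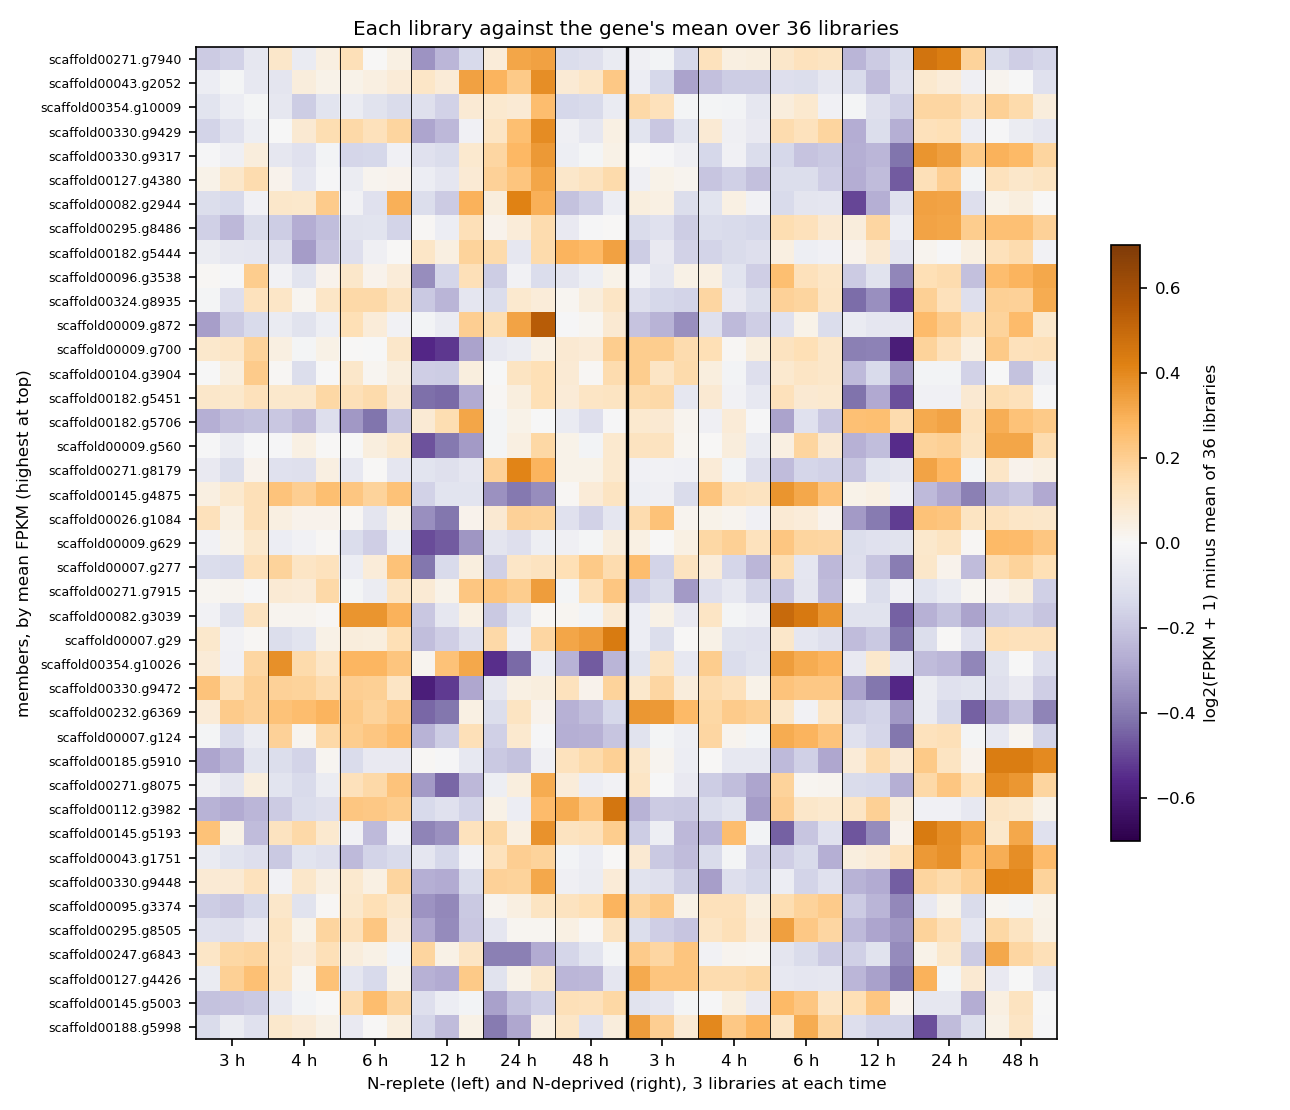
Colour shows the deviation of each member (rows) in each of the 36 libraries (columns, by medium, time and replicate) from that member's own mean, in log2(FPKM + 1). At 12 h 33 of 41 members lie below their mean, by group mean, in each medium, more than at any other time; on values centred on the median gene all 41 lie above it there.

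Between media, differences of single members had both signs. The median difference over the 41 members was 0.02 at 3 h, -0.03 at 4 h, 0.00 at 6 h, -0.03 at 12 h, 0.04 at 24 h and 0.04 at 48 h. The medians of all 9756 gene models, in the same order, were 0.10, 0.05, 0.04, 0.10, 0.11 and 0.15. A positive difference at all 6 times was seen in 3 members, a negative one at all 6 in 5, and both signs in 33. The sign of the median depended on the scale: after centring it was negative at all 6 times, from -0.11 to -0.01, and after quantile normalization it was 0.06 at 12 h and 0.18 at 48 h. The largest difference of a member fell at 48 h in 20 cases, at 12 h in 8, at 24 h in 7 and at 3, 4 and 6 h in 2 each.

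The members with the largest mean difference over the 6 times were chosen from both ends. At the upper end scaffold00009.g629 (scaffold00009, 805568 to 808215; mean 87.9 FPKM) differed by 0.20 on average. In N-replete medium its libraries held 85.8, 89.2 and 92.8 FPKM at 3 h, 80.1, 77.3 and 84.9 at 6 h, 61.9, 63.05 and 69.3 at 12 h, and 85.03, 86.6 and 90.9 at 48 h. In N-deprived medium they held 89.7, 87.4 and 89.96 FPKM at 3 h, 102, 98.99 and 98.6 at 6 h, 80.5, 81.4 and 81.7 at 12 h, and 106, 105 and 102 at 48 h. The media overlapped at 3 h and at no later time, when the N-deprived libraries were the higher ones. The difference was -0.0034 at 3 h and 0.32 at 12 h, with a standard error of 0.049. This member also had the smallest spread between replicates, an SD of 0.047.

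The member scaffold00182.g5706 (scaffold00182, 950357 to 953731; mean 135 FPKM) likewise had a mean difference of 0.20. Its means at 48 h were 129 ± 4.54 FPKM in replete and 159.97 ± 5.25 in deprived medium, while at 12 h they were 153 ± 14.1 and 156 ± 6.37. At the lower end scaffold00271.g7915 (scaffold00271, 29936 to 32671; mean 82.4 FPKM) had a mean difference of -0.20, with 98.6 ± 5.37 FPKM in replete and 79.5 ± 3.04 in deprived medium at 24 h. The member scaffold00043.g2052, described above, had the other of the largest negative mean differences, -0.20. After centring the mean differences of scaffold00009.g629, scaffold00182.g5706, scaffold00271.g7915 and scaffold00043.g2052 were 0.12, 0.11, -0.29 and -0.29. After quantile normalization they were 0.17, 0.22, -0.23 and 0.20, so the direction of scaffold00043.g2052 rested on the scale. These are means over the 6 times, while the limit of 0.35 holds at each time. At single times the largest differences in FPKM of these 4 members, in the same order, had sizes of 0.32, 0.31, 0.31 and 0.32, close under the limit. The replicate SDs of these members, which describe single libraries, were 0.047 to 0.081.

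The count of members called different between media is given beside its background, and nothing is read from it, since the same contrast chose the members. By limma's moderated test with Benjamini-Hochberg adjustment over the 9647 gene models tested, an adjusted p under 0.05 was reached at 3 h by 7 of the 41 members (40% of all gene models tested), at 4 h by 7 (32.5%), at 6 h by 4 (34.6%), at 12 h by 13 (62.5%), at 24 h by 14 (67.8%) and at 48 h by 24 (75.9%). Over time, the F test called 36 members in N-replete medium (99.3% of all) and 40 in N-deprived medium (99.5%). Counted by libraries that did not overlap, the media separated at 3 h in 12 members (52.9% of all gene models), at 4 h in 16 (47.3%), at 6 h in 18 (46.6%), at 12 h in 13 (57.8%), at 24 h in 10 (70%) and at 48 h in 29 (79.4%). The media overlapped at all 6 times in 3 members, scaffold00127.g4426, scaffold00145.g5193 and scaffold00330.g9429, against 2.38% of all gene models; the first of these was named after its values were seen.

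The spread between replicates, which the choice of members did not use directly, was small. The pooled SD within groups was 0.047 to 0.18 among members, with a median of 0.078, and 0.105 in the median of the other abundant gene models of the same range of level. The choice used means of the same libraries, so this comparison is not independent of it and was given no test. The widest spread was that of scaffold00145.g5193 (scaffold00145, 1044903 to 1045477; mean 60.1 FPKM), with 52.1 ± 10.7 FPKM in N-replete medium at 12 h and 59.8 ± 10.8 in N-deprived medium at 4 h. For scaffold00007.g277 the SD was 0.15. Its 24 h means were 86.8 ± 9.33 FPKM in replete and 83.7 ± 9.61 in deprived medium. By group, the median SD of members ran from 0.048 in N-replete medium at 6 h to 0.10 in the same medium at 12 h. Among replete cultures, the members' median deviation was always highest in replicate 3 of a group (6 of 6 times). Among deprived cultures it was always lowest in replicate 3 (6 of 6 times), and summed FPKM and the median of all gene models were ordered alike. The part of this pattern in the differences between media was not tested.

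A replicate left out of the choice gave values that the choice of gene models did not use, though the limits were set with earlier results of all libraries known. When replicates 2 and 3 chose the members, 42 gene models were taken, and in replicate 1 alone 19 of them (45.2%) stayed within both limits, against 8 of the 2563 other abundant gene models (0.312%). When replicates 1 and 3 chose, 23 of 43 (53.5%) stayed within both limits in replicate 2, against 5 of 2564 (0.195%). When replicates 1 and 2 chose, 6 of 23 (26.1%) did so in replicate 3, against 19 of 2575 (0.738%). The median distance between the highest and lowest group was then 0.63, 0.59 and 0.67 in the left-out library series, against 1.89, 1.89 and 1.88 for the others, and the widest of any chosen gene model was 1.06. In the replicate left out the distances of the chosen gene models lay below the median of the other abundant ones, while part of them crossed a limit there. The replicates sample the same 12 groups, so this is a description and not a test of steadiness. In the replicates that chose them, the medians had been 0.55, 0.60 and 0.52, from means of 2 libraries per group. The left-out values come from single libraries, which scatter more than means. The medians, and the counts within the limits, are therefore not like for like between the 2 steps. The 3 rounds share libraries and are not independent of each other.

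**Figure D5:**
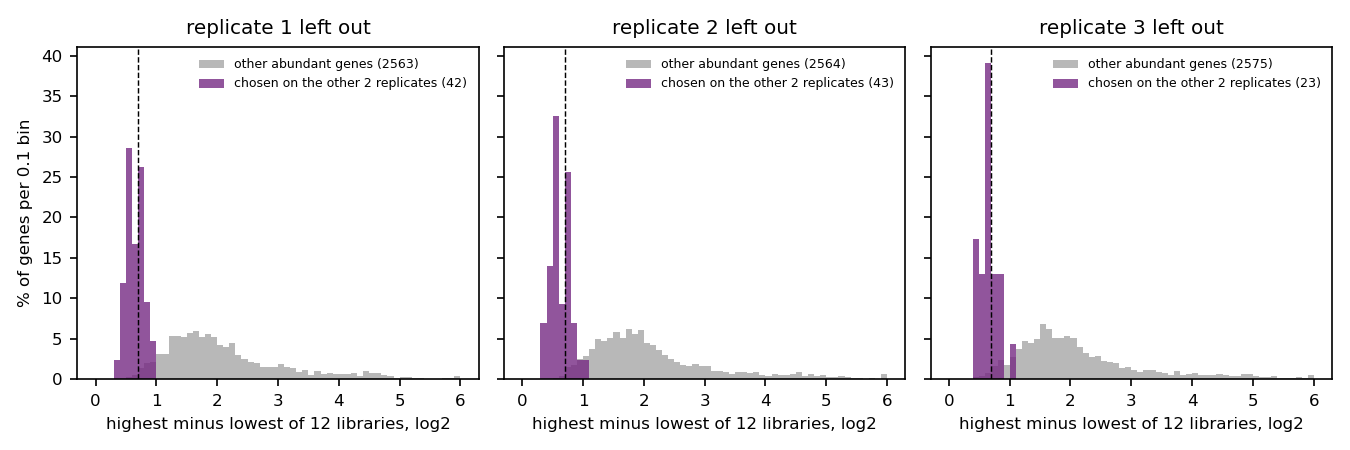
Histograms, in percent of gene models per 0.1 bin, of the distance between the highest and lowest of 12 libraries of a replicate not used for the choice, in log2(FPKM + 1), for gene models chosen on the other replicates and for the remaining abundant ones; the dashed line is the limit of 0.7. Medians are 0.63, 0.59 and 0.67 for the chosen and 1.89, 1.89 and 1.88 for the remaining ones, with replicates 1, 2 and 3 left out in turn.

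Some members met all limits under each scaling of all 36 libraries, and also in FPKM whichever replicate was left out. For these counts, leaving out a replicate was not combined with another scaling. Under both other scalings (centring on the median gene, and quantile normalization) 11 of the 41 stayed within the limits, and without each replicate in turn 18 did. The members that did both numbered 4: scaffold00182.g5451, scaffold00026.g1084, scaffold00007.g277 and scaffold00295.g8505, named after their values were seen. For scaffold00182.g5451 (scaffold00182, 269583 to 271105; mean 144 FPKM) the N-replete libraries held 153, 153 and 156 FPKM at 3 h, 157, 159.6 and 151 at 6 h, 107, 106 and 118 at 12 h, and 150.1, 154 and 155 at 48 h. The N-deprived libraries held 159.9, 160.2 and 136 FPKM at 3 h, 157, 152 and 152 at 6 h, 107, 117 and 102 at 12 h, and 158, 156 and 142 at 48 h. In FPKM all 6 libraries at 12 h lay below every library of the other times, while after centring this member too was above its own mean at 12 h. Its distance between group means was 0.52 in FPKM, 0.35 after centring and 0.39 after quantile normalization. Without the 12 h libraries its distance in FPKM was 0.13.

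The member scaffold00026.g1084 (scaffold00026, 268849 to 271503; mean 111 FPKM) ran from 76.7 to 131 FPKM with a median of 112 over the 36 libraries, and scaffold00295.g8505 (scaffold00295, 509825 to 511661; mean 54.2 FPKM) from 41.7 to 68.4 FPKM with a median of 55.1. Their distances were 0.61 and 0.53 in FPKM, and 0.51 and 0.58 after centring. For scaffold00007.g277 the distance went from 0.40 in FPKM to 0.65 after centring. The members scaffold00026.g1084 and scaffold00295.g8505 had their lowest group mean at 12 h in FPKM, although after centring they too lay above their own mean there.

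Summed over the 41 members, FPKM was not higher in the same medium at every time, while the share of the library was. The sum of their FPKM averaged 6099 in replete and 6145 in deprived medium at 3 h, 5882 and 5523 at 12 h, 6859 and 6794 at 24 h, and 6344 and 6624 at 48 h. Their share of the summed FPKM of a library was 1.03 to 1.15% in replete and 1.08 to 1.30% in deprived medium. At 24 h it was 1.14 ± 0.0087% against 1.28 ± 0.022%, and at 48 h 1.12 ± 0.0029% against 1.24 ± 0.012%. The libraries of the media did not overlap in this share at any of the 6 times, and the N-deprived ones were higher at each. The sum over all gene models, by which the share is divided, averaged 599070 FPKM in replete and 532601 in deprived medium at 24 h.

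The members were scattered over the genome assembly used by the authors, whose build was not given in the sources used here. They lay on 21 of 284 scaffolds, with at most 4 on any of them, and 0 members were next to each other. The closest pair, scaffold00182.g5444 and scaffold00182.g5451, was separated by 16554 bp and 6 gene models. Their loci, introns included, had a median length of 1835 bp, against 2078.5 bp for the other abundant gene models. No abundant gene model, member or not, overlapped another locus in the files, so this says nothing particular to the members. The libraries carry no strand information, and the gap to a neighbour was as small as 1 bp, so reads that run past a gene's end cannot be told apart from those of a close neighbour by strand. The 82 gene models flanking the members were of all levels and had a median distance between group means of 1.48, against 1.69 for all gene models. Of these neighbours 5 lay under 0.7, among them scaffold00104.g3905 with a mean of 0.17 FPKM, a level at which log2(FPKM + 1) has little room to change. Most neighbours were therefore not steady by this measure. Neither were most gene models: the lower quartile of all was 1.33, and 2.11% of the abundant ones lay under 0.7. Being unsteady is thus not particular to the neighbours.

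For contrast, the 4 most abundant gene models of the series all lay far outside the limits. The highest, scaffold00069.g2383, went from 11385 ± 743 FPKM in N-replete to 73.5 ± 6.75 FPKM in N-deprived medium at 48 h. The others, scaffold00081.g2813, scaffold00336.g9678 and scaffold00096.g3746, had distances between group means of 5.07, 6.25 and 4.91, and were highest at 12 h, for example 16355 ± 4032 FPKM for scaffold00081.g2813 in N-replete medium at 12 h against 478 ± 56.5 FPKM at 4 h. Beside these, the widest distance of a member was 0.69.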

How the data were processed

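Tables of FPKM for each gene model were deposited by the authors, whose processing notes name TopHat2 2.0.4 and Cufflinks 2.0.2. Genome build and annotation are not given in the sources used here. The files hold 0 mismatches between single-library and series tables. Groups come from the library titles, and p-values measure the spread between labelled biological replicates, without saying whether a number follows a culture over time.

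Values were taken as log2(FPKM + 1). The 9647 gene models that reached 1 FPKM in 3 or more libraries were fitted in limma 3.58.1 (R 4.3.3) with 12 group means over all 36 libraries, a trended prior and Benjamini-Hochberg adjustment; two-sided. On simulated data for the 48 h comparison with 100 genes changed by 0.35 and 100 by 1.0 among 9647, 59 and 100 were recovered, and 7 unchanged genes were called. The simulated noise was independent between libraries and few genes changed, while 75.9% were called at 48 h in the data. The recovery is thus a check of the code and not an estimate of power here. Other steps used Python 3.11.15, numpy 2.4.6 and pandas 2.3.3.

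The members, lists and rules were chosen with earlier results of these data known. Named are the 8 members of highest level, the 4 with the smallest distance between group means, those nearest each limit on both sides, the 2 with the largest positive and negative mean difference between media, the 2 with the largest and smallest replicate SD, adjacent members (0 were found), members with a symbol (0) and the 4 most abundant other gene models. Positions are counted from 1. The reference table matched 0 identifiers, so no names, sequences or pathway lists were used.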

Additional observations from a re-analysis of the deposited data

Results flagged for a closer look

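In 14 of the 41 members the libraries of the media did not overlap in one direction at some time and in the opposite direction at another, which is a difference in sign between times; it was not tested. The share of members, 34.1%, lay beside 34.1% of the other abundant gene models and 34.9% of all gene models tested. It is therefore not particular to the members. An example is scaffold00330.g9317, lower in N-deprived medium at 12 h (329 ± 20.8 against 394 ± 31.8 FPKM in replete cultures; SD of 3 libraries) and higher at 48 h (483 ± 20.1 against 405 ± 10.2 FPKM). After quantile normalization its N-deprived means were higher at 6 of 6 times.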

How the results depend on the processing

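The number of members, 41, became 130 after centring on the median gene (14 shared), 66 after quantile normalization (28 shared), 20 with at least 100 FPKM, 72 with at least 25 FPKM, 9 with a distance under 0.5, 21 with a media limit of 0.25, 294 without the 12 h libraries (41 shared) and 23 to 43 with a replicate left out, lowest without replicate 3 (22 shared). It was 40 with a pseudocount of 0.1, 57 with 10 and 31 by group medians. Members called between media were 13, 12, 9, 21 and 23 at 3, 4, 6, 12 and 24 h after centring, 19, 14, 12 and 26 at 3, 4, 6 and 24 h after quantile normalization, and 6 at 12 h and 6 at 24 h when each time was fitted alone. With a replicate left out (1 or 2 giving the low counts, 3 the high ones) they ranged from 2 to 9 at 3 h, 0 to 6 at 4 h (limma; 4 to 8 at an unadjusted p under 0.05), 1 to 5 at 6 h, 9 to 16 at 12 h, 6 to 18 at 24 h and 15 to 23 at 48 h. The share of all gene models called under these settings is not given, so nothing about the members is read from these counts. The cause of these shifts was not tested. The members' median share of summed FPKM was 1.12%, and 0.502% without the 10 most abundant members, by construction. Steadiness in the left-out replicate, pooled over the rounds, was 44.4% in FPKM (48 of 108 choices), and 26.1 to 53.5% by round. It was 58.7% after centring (220 of 375), 59.6% after quantile normalization (115 of 193) and 44.2% with a pseudocount of 0.1 (46 of 104). These other settings were chosen after seeing the data. Gene models were chosen anew in each setting, and the same one can count in several rounds. The percentages therefore do not compare the same gene models, and the share of other abundant ones is not given for these settings.

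With the replicate number as a block, 7, 6, 4, 13, 12 and 24 members were called at 3 to 48 h, and 36 and 40 over time. For this setting, too, the share of all gene models called is not given. Deviations of same-numbered libraries correlated by -0.27 to 0.41 across media (median 0.01, 4 of 18 pairs over 0.1), which does not pair libraries across media. Within a medium, replicate 3 stood apart in the same direction at 6 of 6 times, which a check across media does not address. Depth was known only in relative terms, so no counting interval is given; 3 replicates a group limit the precision of each mean.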
